A study of Homo sapiens with 2 samples.

Results

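Genes that carry zinc, iron and copper into, out of and around the cell were compared between MTAC-P, a human lung cancer line with resistance to EGFR tyrosine kinase inhibitors, and PC9, the lung adenocarcinoma line from which it was derived. The genes were chosen by name: 17 zinc transporters, 5 metallothioneins with their regulator MTF1, 10 iron genes, and 9 copper genes and superoxide dismutases. The choice was made with earlier results of these data known. All 42 symbols were found among the 30843 symbols of the transcript tables. Each line was represented by 1 RNA-seq library of cells grown in DMEM with serum, and the labels name no inhibitor or metal added to either culture. PC9 is known for an activating EGFR deletion; whether MTAC-P kept it was not analysed here, and the labels do not say whether MTAC-P is 1 clone. Because each line had 1 library, no difference below has a replicate check, and no p-value or standard error can be given.

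Zinc reaches the cytosol through the SLC39 (ZIP) importers and leaves it through the SLC30 (ZnT) exporters, while metallothioneins hold the surplus. When zinc rises, the transcription factor MTF1 binds metal response elements and raises metallothionein genes and SLC30A1. Iron enters with transferrin through the receptor TFRC, is reduced by STEAP3, leaves the endosome through SLC11A2, and is then used, stored in ferritin (FTH1 and FTL) or exported by ferroportin (SLC40A1); the proteins encoded by ACO1 and IREB2 bind iron response elements in several of these mRNAs. Copper enters through SLC31A1 and is handed by chaperones to its users, by CCS to superoxide dismutase SOD1 and by ATOX1 to the pumps ATP7A and ATP7B.

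Levels are the authors' FPKM values (fragments scaled to transcript length and library size), summed over the listed transcripts of a gene. The difference between the lines is given as a log2 ratio of MTAC-P to PC9 after adding 1 to each level, so differences of low genes come out too small. A comparison was made where the 2 levels averaged 1 FPKM or more, which held for 11435 genes and for 38 of the 42 members. In single-transcript genes, low values within a preset range of value times length were taken as a step, the worth of 1 fragment. Over 25 such genes with 1 fragment in both libraries the step was 1.05 times as large in MTAC-P as in PC9. The depth was estimated at about 23000000 fragments in MTAC-P and 24000000 fragments in PC9. These depths, and the fragment counts and counting intervals below, rest on that preset range. All 8 epithelial markers were compared and none reached 2-fold, with a summed level of 4072 FPKM in MTAC-P and 3891 FPKM in PC9. Leukocyte markers summed to 29.8 FPKM in MTAC-P and 24.1 FPKM in PC9, nearly all of it CD68, which is also made by other cells. Fibroblast and endothelial markers summed to 7.10 FPKM in MTAC-P and 5.83 FPKM in PC9. A level is an average over the culture, so fewer cells with a transcript and less of it per cell cannot be told apart.

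Members of each metal reached 2-fold. The metallothioneins MT2A and MT1F were higher in MTAC-P, while the zinc transporter SLC39A11, the ferritin heavy chain FTH1, the iron exporter SLC40A1 and the copper genes CCS, COMMD1 and ATP7A were lower. Of the 38 members compared, 2 were higher by 2-fold or more and 6 were lower by as much, together 8 or 21.1%, while 30 lay within 2-fold. Over all genes compared, 7.77% reached 2-fold, 3.48% higher and 4.29% lower. At 1.5-fold 10 of the 38 members were higher and 6 lower, together 42.1%. Over all genes compared, 8.96% were higher and 11.2% lower by as much, together 20.2%. The median log2 ratio of the members was 0.13, beside -0.02 for all genes. Members were chosen with earlier results of these data known and were not a random draw. Whether that choice affected the shares was not tested, and no test of the list was made.

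**Figure D1:**
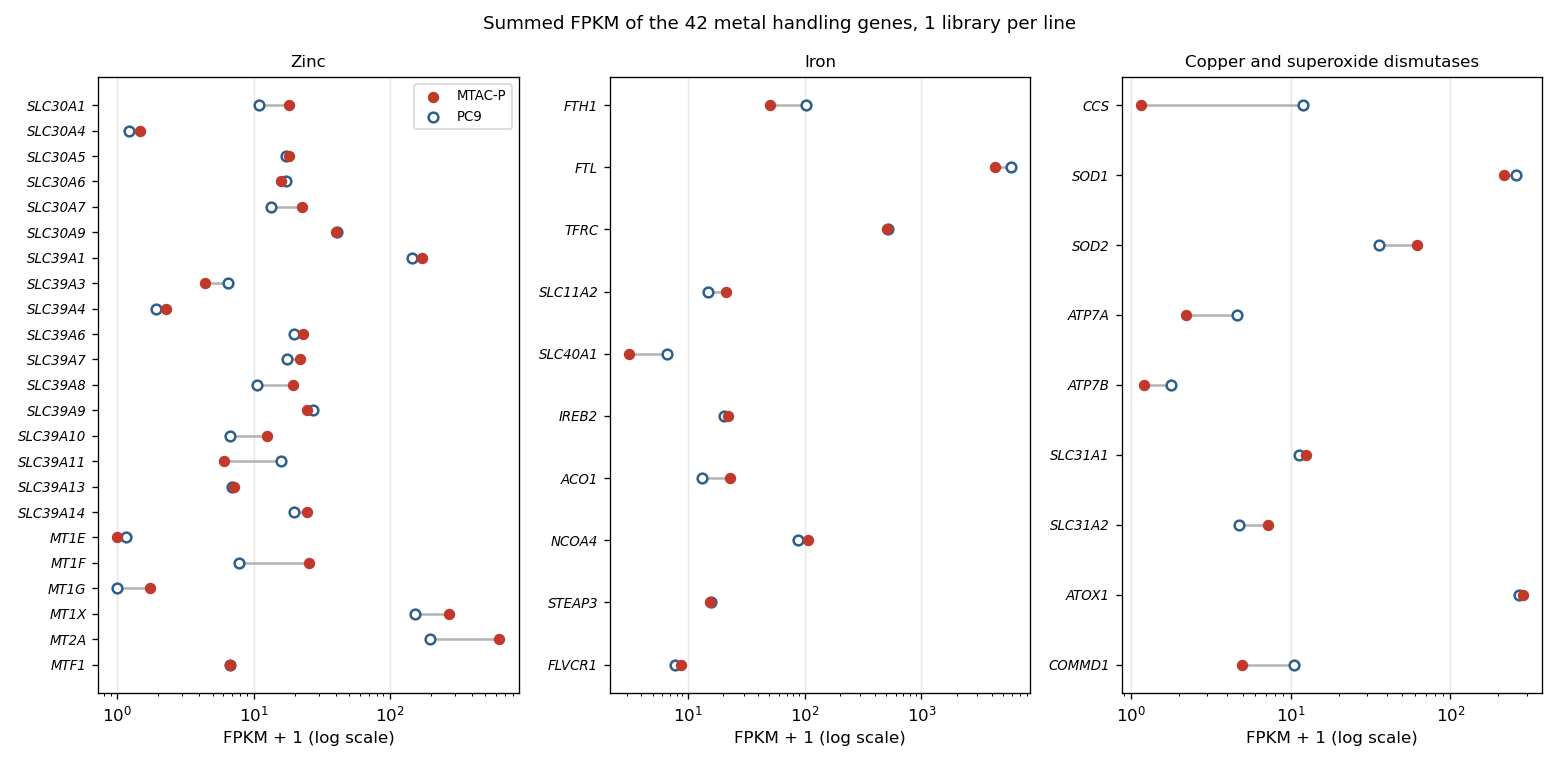
Summed FPKM + 1 (log axis) of all 42 members in MTAC-P (filled red) and PC9 (open blue), 1 library per line, by metal. MT2A and MT1F lie to the right in MTAC-P, and CCS, ATP7A, COMMD1, SLC40A1, FTH1 and SLC39A11 to the left.

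The tables stop at transcript number 437205, and transcripts with later numbers were not analysed here. For the members 117 transcripts were listed, and 105 further coding transcripts of GENCODE release 29 have later numbers. All coding transcripts were listed for 13 members, and none of these 13 reached 2-fold (SLC30A4 among them was not compared). The 8 members past 2-fold therefore each rest on a part of their coding transcripts, and a difference in the listed ones can be a shift to ones not listed.

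Metallothioneins are short proteins rich in cysteines that bind metal. The coding sequences of the pair with the largest log2 ratios show this, and how alike the family members are; codons for cysteine are in capitals (GENCODE release 29, from start codon, stop codon left out):
MT2A: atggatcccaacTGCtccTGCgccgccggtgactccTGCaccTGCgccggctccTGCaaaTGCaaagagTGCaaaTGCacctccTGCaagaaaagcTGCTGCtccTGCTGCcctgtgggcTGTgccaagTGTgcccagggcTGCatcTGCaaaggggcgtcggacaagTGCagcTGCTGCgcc
MT1F: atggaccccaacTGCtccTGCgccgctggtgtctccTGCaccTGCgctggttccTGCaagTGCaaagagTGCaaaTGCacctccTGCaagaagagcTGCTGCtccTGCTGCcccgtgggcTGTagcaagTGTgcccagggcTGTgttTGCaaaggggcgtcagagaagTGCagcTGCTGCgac
Each holds 20 cysteine codons among 61. Identity between the coding sequences of MT2A, MT1X, MT1F, MT1E, MT1G and MT1A ranged from 88.5% to 94.5%, so fragments can be shared out between these genes and their separate values are uncertain. The genes lie together on chromosome 16 between 56565049 and 56684196 (GRCh38), a stretch of 119 kb with 16 annotated metallothionein genes and pseudogenes.

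MT2A, the most abundant metallothionein (chromosome 16, 56608199 to 56609497), stood at 638.7 FPKM in MTAC-P and 195.5 FPKM in PC9, a 3.27-fold difference and a log2 ratio of 1.70. Counting error alone gives a 95% interval of 1.65 to 1.77 for the log2 difference of its FPKM (exact binomial on the estimated fragments), which leaves out variation between cultures. MT1X (56682424 to 56684196) stood at 270.5 FPKM in MTAC-P and 153.4 FPKM in PC9, a log2 ratio of 0.81, short of 2-fold; 36.7% of its exon bases are shared with AC026461.1 on the same strand. Both abundant members were thus higher in MTAC-P, MT2A by more. MT2A was 2.36 times as abundant as MT1X in MTAC-P and 1.27 times in PC9, per length.

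MT1F (56657694 to 56660698) stood at 24.5 FPKM in MTAC-P and 6.84 FPKM in PC9, a log2 ratio of 1.70. Its transcript MT1F-201 alone gave 17.6 FPKM in MTAC-P and 6.83 FPKM in PC9, a log2 ratio of 1.25, and the rest came from a transcript that is not in GENCODE release 29. The direction was thus the same in the annotated transcript, with a smaller difference. MT1E stood at 0 in MTAC-P and 0.155 FPKM in PC9, and MT1G at 0.724 FPKM in MTAC-P and 0 in PC9, so neither was compared. Together the 5 metallothionein members summed to 934 FPKM in MTAC-P and 356 FPKM in PC9. MTF1, their zinc-sensing regulator, stood at 5.69 FPKM in MTAC-P and 5.71 FPKM in PC9, a log2 ratio of -0.01, so its mRNA was level between the lines. With MTF1, 4 genes of this group were compared. Of these, 2 were at least 2-fold higher, beside 3.48% of all genes compared, and the median log2 ratio was 1.26. That median leaves out MT1A, an expressed metallothionein that is not a member and had a log2 ratio of 0.40. Pseudogene symbols of the family summed to 13.8 FPKM in MTAC-P and 14.6 FPKM in PC9.

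RefSeq promoter windows (GRCh38.p14) were at hand for MT2A and MT1X, and the 250 bases before each RefSeq start are shown because MTF1 acts in promoters. All of the MT2A stretch and the end of the MT1X stretch lie inside the GENCODE gene spans given above. Matches to the metal response element core, TGCACNC or TGCGCNC on either strand, are in capitals (chr16:56608334-56608583 and chr16:56682220-56682469, plus strand):
MT2A: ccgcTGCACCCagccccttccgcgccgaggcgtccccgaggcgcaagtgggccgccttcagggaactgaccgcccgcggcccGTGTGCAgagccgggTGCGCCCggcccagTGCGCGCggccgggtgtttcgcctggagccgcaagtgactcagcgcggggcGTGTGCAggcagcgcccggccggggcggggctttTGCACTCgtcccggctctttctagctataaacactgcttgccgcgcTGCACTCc
MT1X: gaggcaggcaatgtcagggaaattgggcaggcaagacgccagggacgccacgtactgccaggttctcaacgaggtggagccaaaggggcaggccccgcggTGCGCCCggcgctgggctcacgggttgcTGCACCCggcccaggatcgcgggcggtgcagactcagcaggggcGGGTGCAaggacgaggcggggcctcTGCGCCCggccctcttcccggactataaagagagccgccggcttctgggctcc
MT2A held 8 separate matches in the window that runs on to 50 bases past the start, 7 of them in the stretch shown, and MT1X held 4. Of 35116 promoter windows of the same length, 29.6% held at least 1 match, 0.339% at least 4, and 6 windows at least 8. Over all members 34 had a window, and 23 of their 52 windows (44.2%) held a match. With overlapping matches counted once, SLC30A1, a known MTF1 target, had 2, as had SLC40A1, TFRC and 1 of the ATP7B windows. Of all promoter windows, 7.51% held at least 2. A match is a stretch of letters and does not show that a factor was bound.

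**Figure D2:**
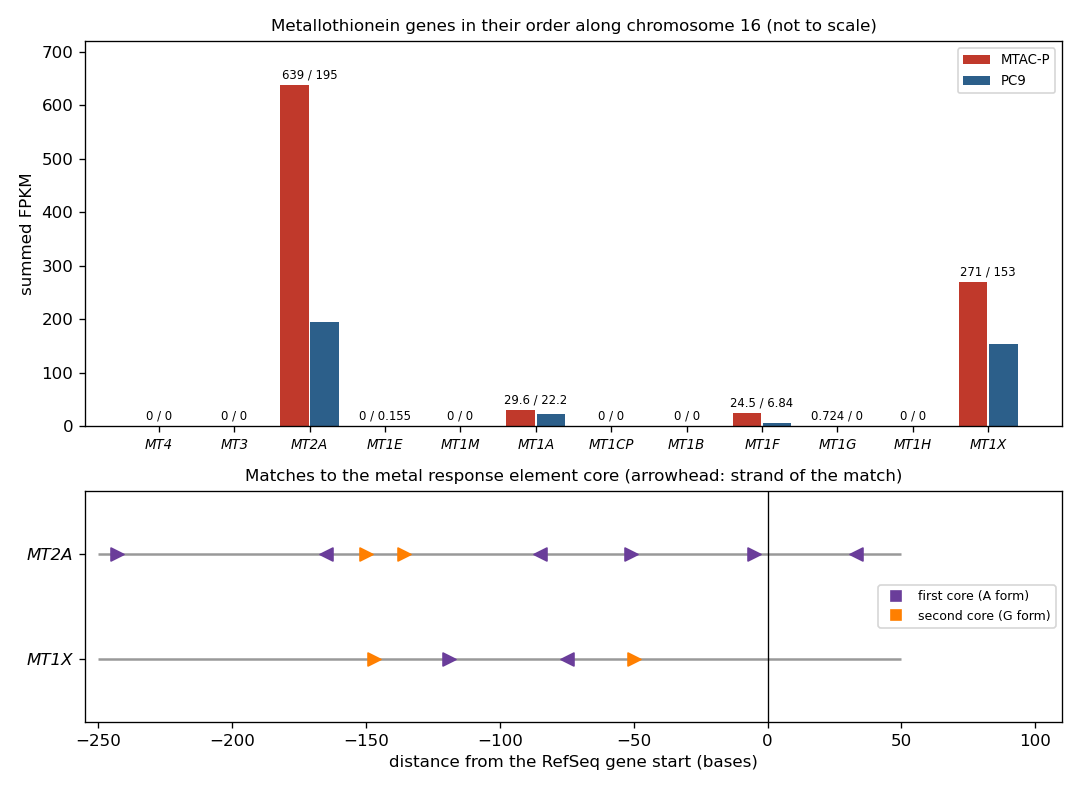
Top, summed FPKM of the 12 listed metallothionein genes of chromosome 16 in gene order, with MTAC-P (red) left of PC9 (blue) and both values printed; MT2A and MT1X carry most of the level. Bottom, matches to the 2 forms of the metal response element core by distance in bases from the RefSeq start, 8 for MT2A and 4 for MT1X.

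Among the zinc exporters none of 5 compared reached 2-fold, and their median log2 ratio was 0.08. SLC30A1, which exports zinc across the plasma membrane, stood at 17.3 FPKM in MTAC-P and 9.92 FPKM in PC9 (log2 ratio 0.74), with a counting interval of 0.70 to 0.90 for the log2 difference of its FPKM. SLC30A7, which loads the Golgi, stood at 21.8 FPKM in MTAC-P and 12.5 FPKM in PC9 (0.75). These were the exporters past 1.5-fold. SLC30A5 and SLC30A6, which act as a pair in the early secretory pathway, had log2 ratios of 0.08 and -0.11, and the mitochondrial exporter SLC30A9 stood at 39.5 FPKM in MTAC-P and 39.8 FPKM in PC9. SLC30A4, an endosomal exporter, was below the minimum, at 0.458 FPKM in MTAC-P and 0.215 FPKM in PC9.

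Of the 11 zinc importers 8 lay above 0, with a median log2 ratio of 0.24. Over all genes compared, 7.77% reached 2-fold, and of these importers 1 did. That was SLC39A11 (chromosome 17, 72645949 to 73092712), lower in MTAC-P at 5.07 FPKM against 14.8 FPKM in PC9, a log2 ratio of -1.38 with a counting interval of -1.74 to -1.36 for the log2 difference of its FPKM. It rests on 1 listed transcript of 10 coding ones. SLC39A10, a plasma membrane importer, stood at 11.5 FPKM in MTAC-P and 5.69 FPKM in PC9, a log2 ratio of 0.90 that passed 2-fold with a pseudocount of 0.1 (1.004). SLC39A8, which also carries manganese and iron, stood at 18.5 FPKM in MTAC-P and 9.64 FPKM in PC9 (0.88), and both SLC39A8-201 and SLC39A8-202 were higher in MTAC-P. Its close relative SLC39A14 stood at 23.8 FPKM in MTAC-P and 18.9 FPKM in PC9 (0.31).

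SLC39A1 was the most abundant zinc importer, at 170.9 FPKM in MTAC-P and 144.6 FPKM in PC9 (0.24). Its main transcript SLC39A1-202 gave 140.6 FPKM in MTAC-P and 108.0 FPKM in PC9, while SLC39A1-206 gave 0.203 FPKM in MTAC-P and 16.4 FPKM in PC9. The gene's transcripts thus differed in opposite directions, and 63.5% of its exon bases are shared with AL358472.7 on the same strand. SLC39A6, which pairs with SLC39A10, had a log2 ratio of 0.21, SLC39A7, which releases zinc from the endoplasmic reticulum, 0.31, SLC39A13 of the Golgi 0.06, SLC39A9 -0.17 and SLC39A3 -0.55. The intestinal importer SLC39A4 was low in both lines, at 1.27 FPKM in MTAC-P and 0.924 FPKM in PC9. For SLC39A7, 10 of 12 listed transcripts were not in GENCODE release 29, and its log2 ratio was -0.06 with the others weighted by length.

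Iron genes are partly controlled through iron response elements, hairpins with a CAGTGN loop and an unpaired C. In a search for a C, 5 paired bases and that loop, 4 iron members held a match, and 1.03% of the 37887 listed coding transcripts with a GENCODE sequence did. The sites are shown because ferritin and ferroportin carry theirs in the 5′ UTR, where binding is known to block translation, while the receptor carries several in the 3′ UTR, where binding is known to stabilise the mRNA. The loop and the C are in capitals:
FTH1: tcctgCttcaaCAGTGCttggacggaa
FTL: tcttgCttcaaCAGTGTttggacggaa
SLC40A1: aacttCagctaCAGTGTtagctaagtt
TFRC site 1: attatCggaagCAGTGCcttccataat
TFRC site 2: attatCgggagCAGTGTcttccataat
TFRC site 3: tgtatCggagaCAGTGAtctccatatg
TFRC site 4: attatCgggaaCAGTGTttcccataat
They lie at 61967575 to 61967601 on chromosome 11 (FTH1), 48965336 to 48965362 on chromosome 19 (FTL), 189580662 to 189580688 on chromosome 2 (SLC40A1) and, for the first TFRC site, 196050980 to 196051006 on chromosome 3 (GRCh38). Only 3 listed coding transcripts held 3 or more matches, and these were TFRC-201, TFRC-202 and TFRC-203.

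FTL, FTH1 and SLC40A1, the 3 members with a 5′ element, were lower in MTAC-P, FTL by less than 2-fold. A link to the element was not tested, and mRNA levels do not report on translation. FTL, the ferritin light chain and the most abundant member (chromosome 19, 48965301 to 48966878), stood at 4284 FPKM in MTAC-P and 5864 FPKM in PC9, a log2 ratio of -0.45 with a counting interval of -0.47 to -0.44. It made up 0.625% of the summed FPKM in MTAC-P and 0.846% in PC9, and its 1 coding transcript was listed. FTH1, the heavy chain that oxidises iron (chromosome 11, 61959718 to 61967660), stood at 49.1 FPKM in MTAC-P and 101.1 FPKM in PC9, a log2 ratio of -1.03 with a counting interval of -1.14 to -0.94, which holds values on both sides of 2-fold.

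FTH1 rests on 1 listed transcript of 8 coding ones, so the level of FTL over that of FTH1, 87.3 in MTAC-P and 58.0 in PC9, cannot be read as the ratio of the chains. Exons of BEST1, on the other strand, cover 71.6% of that transcript. BEST1 itself stood at 0.0578 FPKM in MTAC-P and was listed at 0 in PC9. Ferritin heavy chain pseudogenes, which share its sequence, summed to 6.31 FPKM in MTAC-P and 16.8 FPKM in PC9, in the same direction as FTH1.

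SLC40A1, the iron exporter ferroportin (chromosome 2, 189560579 to 189583758), stood at 2.14 FPKM in MTAC-P and 5.62 FPKM in PC9, a log2 ratio of -1.08. SLC40A1-201 alone gave 2.14 FPKM in MTAC-P and 5.03 FPKM in PC9, while SLC40A1-202 was listed at 0 in MTAC-P and stood at 0.595 FPKM in PC9. The coding transcript SLC40A1-201 was lower in MTAC-P, at a log2 ratio of -0.94, short of 2-fold on this scale.

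TFRC, the transferrin receptor (chromosome 3, 196027183 to 196082189), had nearly the same summed level in both lines, 508 FPKM in MTAC-P and 520 FPKM in PC9 (log2 ratio -0.03). The sum is made mostly of 2 transcripts under 1000 nt, with 359.6 FPKM in MTAC-P and 412 FPKM in PC9. The 3 long transcripts, which hold the iron response elements, summed to 148 FPKM in MTAC-P and 108 FPKM in PC9, a log2 ratio of 0.45. Not all long transcripts were higher: TFRC-203 stood at 13.1 FPKM in MTAC-P and 27.9 FPKM in PC9. With all transcripts weighted by length the gene's log2 ratio was 0.33. TFRC-201, the longest, stood at 113 FPKM in MTAC-P and 62.4 FPKM in PC9.

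**Figure D3:**
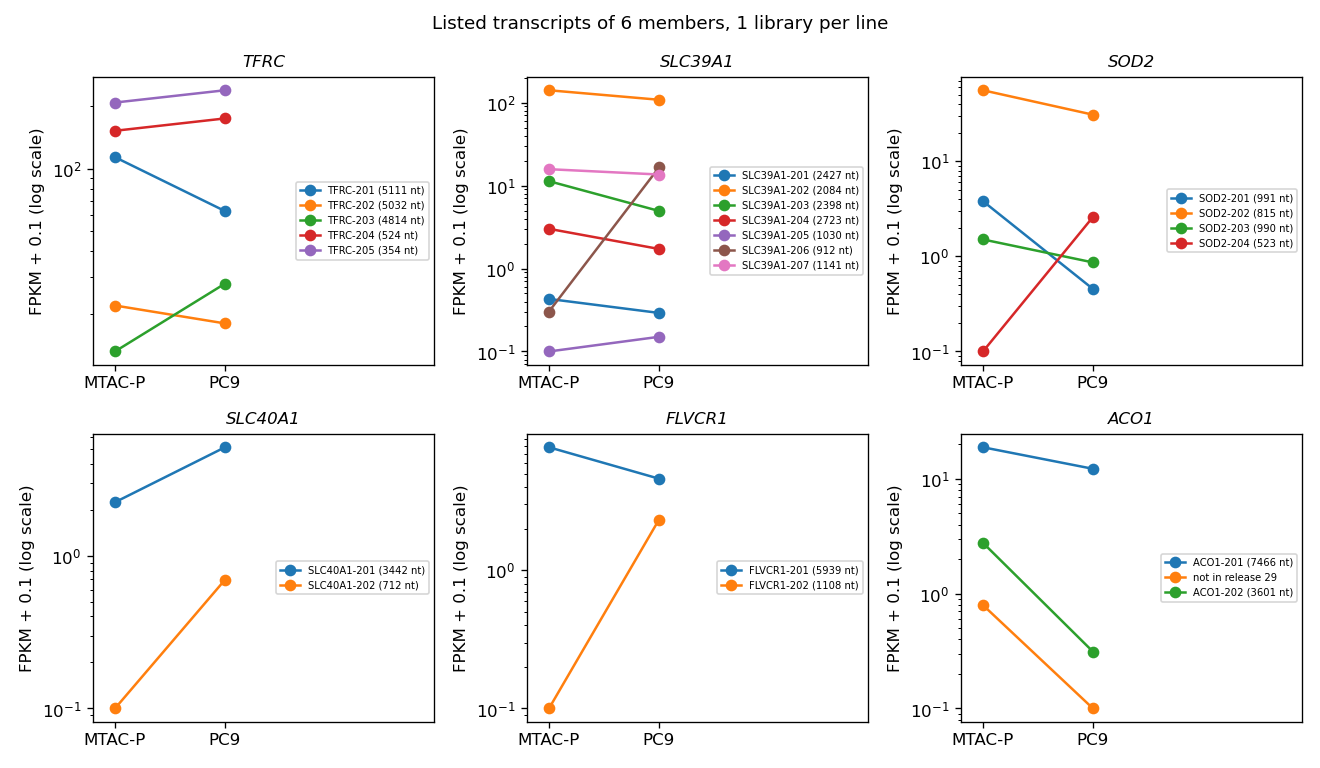
FPKM + 0.1 (log axis) of each listed transcript with a value above 0 for 6 members, MTAC-P left and PC9 right, 1 library per line, with annotated lengths in nt. In TFRC, SLC39A1, SOD2 and FLVCR1 some transcripts were higher in MTAC-P and others lower.

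Of the other iron members none reached 2-fold. ACO1, which is an aconitase or an iron-responsive RNA-binding protein depending on iron, stood at 22.1 FPKM in MTAC-P and 12.3 FPKM in PC9, a log2 ratio of 0.79. Its partner IREB2 stood at 21.3 FPKM in MTAC-P and 19.6 FPKM in PC9 (0.12). The endosomal iron transporter SLC11A2 stood at 20.4 FPKM in MTAC-P and 13.99 FPKM in PC9 (0.52), from 3 of 18 coding transcripts. NCOA4, which delivers ferritin to lysosomes, had a log2 ratio of 0.28, FLVCR1, described as a haem exporter and choline transporter, 0.17 and the reductase STEAP3 -0.01. With transcripts weighted by length, FLVCR1 had a log2 ratio of 0.55 and STEAP3 of -0.30. For STEAP3, 3 of 7 listed transcripts were not in GENCODE release 29 and were left out of that weighting. None of the 6 listed NCOA4 transcripts was in GENCODE release 29. Over the 10 iron members the median was 0.05, with 5 above 0. In the summed levels, the lower ferritin and ferroportin values stood beside higher or level values of TFRC, SLC11A2, STEAP3, ACO1 and IREB2. This covers members only, and a link between these values was not tested.

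Among copper genes and superoxide dismutases 3 of 8 compared were lower by 2-fold or more and none was higher by as much. Over all genes compared, 4.29% were lower and 3.48% higher by 2-fold or more. The median log2 ratio of the 8 was -0.08. CCS, the chaperone that loads copper into SOD1 (chromosome 11, 66592821 to 66606019), stood at 0.152 FPKM in MTAC-P and 10.97 FPKM in PC9, a log2 ratio of -3.38. This is about 2.71 estimated fragments in MTAC-P and 206 in PC9; without the added 1 the log2 difference was -6.17, with a counting interval that ran from -8.32 to -4.46. The value rests on 1 listed transcript, CCS-201, of 3 coding ones. SOD1, which CCS serves, stood at 215 FPKM in MTAC-P and 256 FPKM in PC9 (-0.25), with both of its coding transcripts listed.

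ATP7A, a copper pump of the Golgi and plasma membrane (chromosome X, 77910656 to 78050395), stood at 1.21 FPKM in MTAC-P and 3.64 FPKM in PC9, a log2 ratio of -1.07. ATP7A-201 and ATP7A-202 were both lower in MTAC-P, and ATP7A-201 made up 84.9% of the gene in MTAC-P and 85.6% in PC9. Its relative ATP7B was below the minimum, at 0.212 FPKM in MTAC-P and 0.784 FPKM in PC9. COMMD1, which takes part in copper export and in the turnover of NF-kB subunits (chromosome 2, 61888724 to 62147247), stood at 3.95 FPKM in MTAC-P and 9.46 FPKM in PC9 (-1.08). Nearly all of its level came from COMMD1-201, 1 of 2 coding transcripts listed among 4, and 34.9% of its exon bases are shared with the pseudogene RPSAP26.

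The mRNA levels of SLC31A1, SLC31A2 and ATOX1 stayed within 2-fold. The importer SLC31A1 stood at 11.5 FPKM in MTAC-P and 10.3 FPKM in PC9 (0.14), and SLC31A2, a related endosomal protein, at 6.26 FPKM in MTAC-P and 3.76 FPKM in PC9 (0.61). Exons of FKBP15 on the other strand cover 85.9% of the SLC31A2 exons, and FKBP15 had a log2 ratio of -0.14. ATOX1, the chaperone for the copper pumps, stood at 283 FPKM in MTAC-P and 267 FPKM in PC9 (0.09), from 1 of 6 coding transcripts. SOD2, the manganese superoxide dismutase of mitochondria, stood at 61.0 FPKM in MTAC-P and 34.5 FPKM in PC9 (0.81), mostly from SOD2-202 at 55.9 FPKM in MTAC-P and 30.9 FPKM in PC9. WTAP on the other strand shares 13.1% of the SOD2 exon bases and stood at 43.2 FPKM in MTAC-P and 42.4 FPKM in PC9.

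**Figure D4:**
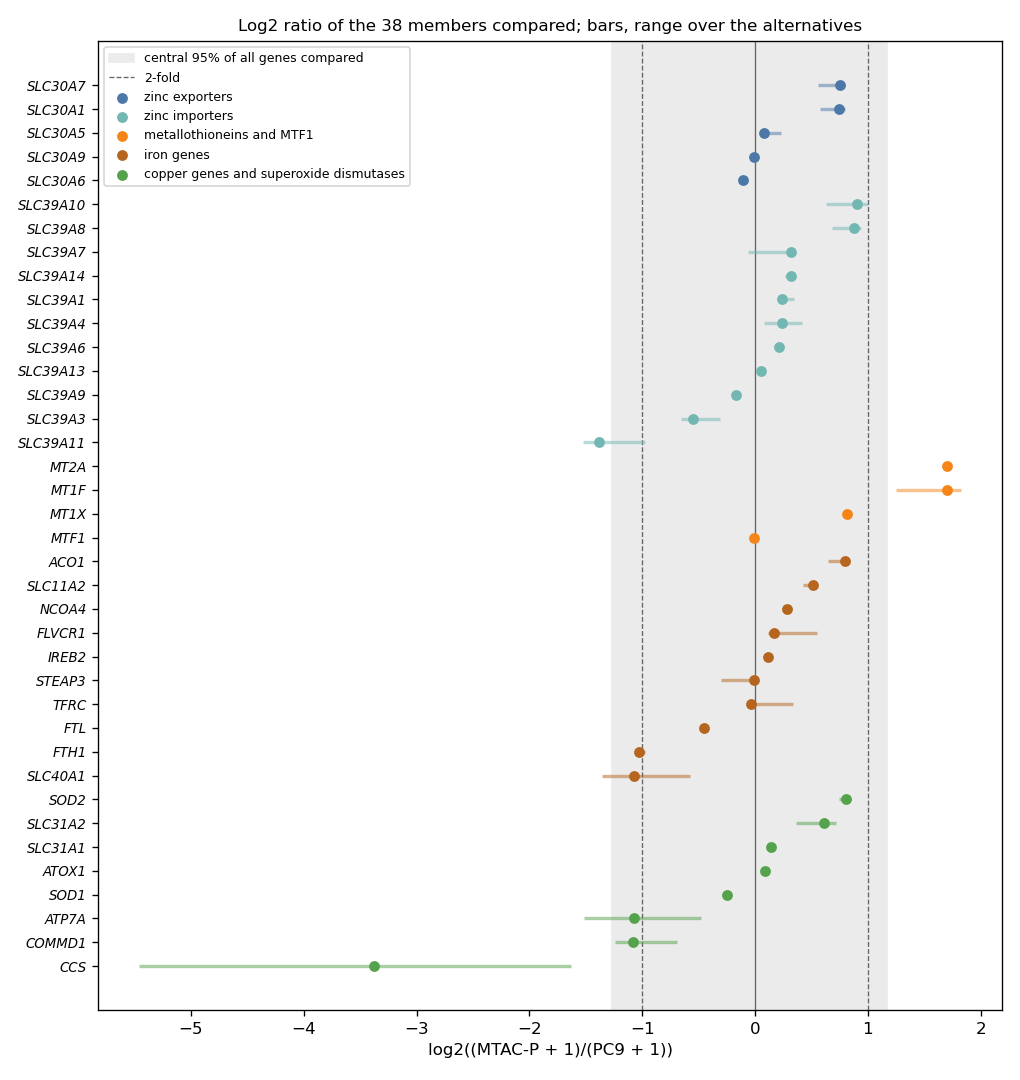
Log2 ratio (MTAC-P over PC9, pseudocount 1) of the 38 members compared, coloured by role, with bars for the range over the alternatives in processing, dashed lines at 2-fold and a grey band for the central 95% of all genes (-1.27 to 1.17). MT2A, MT1F, SLC39A11 and CCS lie outside the band, though the range of SLC39A11 reaches -0.98, inside it. MT2A has a narrow range (1.67 to 1.72), as has FTL (-0.49 to -0.43). Both have a high level and 1 listed transcript, so the alternatives can move them little.

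Other genes of the 3 metals were looked at beside the members. They were listed from knowledge of the pathways, with earlier results of these data known. Of 51 compared, 4 were higher by 2-fold or more and 2 were lower by as much (11.8%), beside 7.77% of all genes compared. Their median log2 ratio was 0.01. Of the zinc genes 3 were compared. S100A9, whose protein binds zinc outside the cell together with that of S100A8, stood at 969 FPKM in MTAC-P and 359.6 FPKM in PC9 (log2 ratio 1.43). S100A8 stood at 48.3 FPKM in MTAC-P and 23.4 FPKM in PC9 (1.01). MT1A, a metallothionein named here after its values were seen, stood at 29.6 FPKM in MTAC-P and 22.2 FPKM in PC9 (0.40).

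Of 26 other iron genes 2 were higher by 2-fold or more and 2 lower (15.4%), beside 7.77% of all genes compared. LCN2, which binds iron-laden siderophores, stood at 1449 FPKM in MTAC-P and 336.7 FPKM in PC9 (2.10), and STEAP1, a metalloreductase family member, stood at 14.2 FPKM in MTAC-P and 4.44 FPKM in PC9 (1.48). The haem-degrading enzyme HMOX1 stood at 3.34 FPKM in MTAC-P and 10.9 FPKM in PC9 (-1.46), and the biliverdin reductase BLVRA stood at 17.4 FPKM in MTAC-P and 36.4 FPKM in PC9 (-1.02). None of 22 other copper genes reached 2-fold, and their median was -0.04. The 7 relatives of COMMD1 among them, singled out after their values were seen, lay between -0.30 and 0.40.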

How the data were processed

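RNA-seq of 1 library each of MTAC-P and PC9 was used. Trim Galore, TopHat and Cufflinks with build hg38 are named in the submitters' processing notes; their versions and the annotation release are not given in the sources used here. Transcript values were deposited by the authors without a unit and are taken as FPKM because Cufflinks is named. Triplicates are mentioned in the series text, yet a single column was present for each line. An exact 0 can be a failed estimate.

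Values were summed per symbol with pandas 2.3.3, and genes whose mean reached 1 FPKM were compared with a pseudocount of 1; 2-fold or more was counted. Members, lists and the rule for naming genes (all members; of the other lists those at 2-fold or more, up to 6 a list by size of the log2 ratio, and LCN2 and HMOX1) were chosen with earlier results of these data known. Coordinates, lengths and transcript sequences are from GENCODE 29 (GRCh38, the assembly of hg38), promoters from RefSeq (GRCh38.p14). Fragments were estimated from low values in single-transcript genes over 1000 nt that fell in a preset range and were taken as 1 fragment. Intervals are exact Clopper-Pearson at 95%, given for members with 1 listed transcript, and cover counting error only. No source used here gives the strand setting of the libraries, so reads of genes that overlap on opposite strands may not be separable. Functions were tested on simulated data. Alternatives were other pseudocounts, filters, scalings, transcript choices and 1.5-fold; length weighting and scaling without mitochondrial genes were added after seeing the data.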

Additional observations from a re-analysis of the deposited data

How the results depend on the processing

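Over 11 alternatives that kept the 2-fold limit, 381 of 388 values of members kept their side of 2-fold and none at 2-fold changed sign. Settings that only choose which genes are kept (no filter, a mean of at least 5, 1 listed transcript) cannot change a member's own ratio. The setting with coding biotype only also left the ratio of each member at its main value. The count of 381 therefore overstates how far the ratios were tried. With a pseudocount of 5, 3 members (MT2A, MT1F and CCS; 7.89%) and 2.48% of all genes reached 2-fold, and FTH1 (-0.97), SLC39A11 (-0.98), SLC40A1 (-0.57), ATP7A (-0.48) and COMMD1 (-0.69) dropped below it; SLC40A1 also did with length weighting (-0.97). At 1.5-fold, 16 members (42.1%; 10 higher, 6 lower) and 20.2% of all genes were counted, and with symbols of 1 listed transcript only, 4 of 13 members (30.8%) and 9.76% of all genes reached 2-fold. Medians moved by more than 0.1 for metallothioneins and MTF1 (1.26) with a pseudocount of 5 (1.06), no filter (0.80), 1 listed transcript (0.81) and length weighting (1.03); for copper genes (-0.08) with no filter (-0.25), a mean of at least 5 (0.086) and 1 listed transcript (-1.65); for zinc exporters (0.08) with 1 listed transcript (0.37) and length weighting (0.23); and with 1 listed transcript for zinc importers (-0.55) and iron genes (-0.45). The settings with 1 listed transcript, no filter or another mean compare other sets of genes; for the rest the cause was not tested. Scalings shifted all genes by at most 0.03. No paired analysis was possible because there is 1 library per line, and no library could be left out. Depth limits CCS in MTAC-P, MT1E and MT1G, which rest on a few fragments.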
